A study of Mus musculus with 5 samples.

Results

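Cells washed from the peritoneal cavity of mice given the polysaccharide AEPS alone were compared with those of mice given the vehicle PBS alone, gene by gene over the whole transcriptome. AEPS is a polysaccharide prepared from the roots of Actinidia eriantha, a relative of the kiwifruit, and the study examined it as a vaccine adjuvant beside alum. The comparison used 2 of the 5 arrays of the study, and 14935 of the 20121 genes with a value on every array entered it because their probe was well above background on at least 1 of the 2 arrays. No measured value chose the arrays.

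All mice were female BALB/c, an inbred strain, and the cells were collected 2 h after 1 intraperitoneal injection. The compared groups were PBS and AEPS at 50 µg per mouse. The remaining arrays held cells of mice injected with the egg white protein ovalbumin (OVA) at 25 µg, alone, with AEPS at 50 µg, or with the aluminium adjuvant alum at 200 µg. Each group was 1 single-colour Agilent array, the labels do not say if cells of several mice were combined, and no difference below has a replicate check or a p-value.

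The resting peritoneal cavity of a mouse holds mainly large resident macrophages and B cells, with fewer T cells, dendritic cells and mast cells, and neutrophils and monocytes enter it within hours of an irritant. Microbial and plant polysaccharides are recognised by phagocytes through Toll-like receptors, C-type lectins and scavenger receptors. Those receptors act through NF-kB, which switches on chemokines and cytokines, and some of them also through interferon regulatory factors, which switch on type I interferon. Secreted interferon then acts on its receptor through JAK kinases and a complex that holds STAT2 and IRF9, which binds the interferon-stimulated response element in the promoters of antiviral genes.

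Levels are log2 signals relative to the 75th percentile of the same array, so that 0 is the signal at that percentile and a step of 1 is a 2-fold change. Higher or lower means at least 2-fold between the AEPS and the PBS array, in these samples only. A probe not well above background on 1 of them gives only a bound, written as "at least". Counts rest on the measured signals, so a gene can be counted whose bound is under 2-fold. The scanner's error model gave a median technical SE of 0.204 for a log2 difference, which covers neither animals nor arrays. On the slide the PBS array lay in row 1, column 4, and the other 4 arrays lay in row 2, AEPS in column 1 and OVA with alum in column 4. The row and the injection therefore cannot be told apart. Among genes above background on some array, 163 were at least 2-fold lower on both column-4 arrays than on each of the other 3. This slide column pattern places PBS at least 2-fold below AEPS by definition. The 157 of its genes that could be compared were therefore all counted as higher with AEPS. The reverse, at least 2-fold higher on both column-4 arrays, held for 15 genes. Genes of the slide column pattern are marked as such where they are named, and its part in their differences was not tested.

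With AEPS, 1299 genes were higher (8.7% of those compared) and 1029 were lower (6.89%) than with PBS. Counts within the gene lists below are to be read beside these shares, and some small counts lie near them. The larger differences were mostly increases: 396 genes were at least 4-fold higher against 203 at least 4-fold lower, 161 against 42 at 8-fold, and 41 against 2 at 32-fold. Among genes above background on both arrays the numbers were 230 against 67, 60 against 8 and 7 against 0. The median gene differed by -0.17, the quartiles were -0.48 and 0.26, and 84.4% of genes lay within 2-fold. Of the genes past 2-fold 55.8% were higher, a share that was 68.7% after normexp correction with quantile scaling and 91.5% when arrays were scaled on their spike-in probes. Spike-in scaling moved the median of all genes to 0.49, so list medians below are to be read against that of all genes. Part of the differences rest on weak signals. Of the higher genes 263 were above background with AEPS only, and of the lower genes 355 were so with PBS only. Among the 2987 dimmest genes 13.1% were higher and 15.8% lower, against 7.57% and 2.14% of the 2987 brightest. A further probe above background existed for 288 of the higher genes, and in 163 of these every such probe was also at least 2-fold higher. For the lower genes the numbers were 141 and 67. Genes of the interferon response led the list: among genes above background on both arrays, 20 of the 50 largest increases and 34 of the 100 largest belonged to 7 lists of interferon-induced genes.

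**Figure D1:**
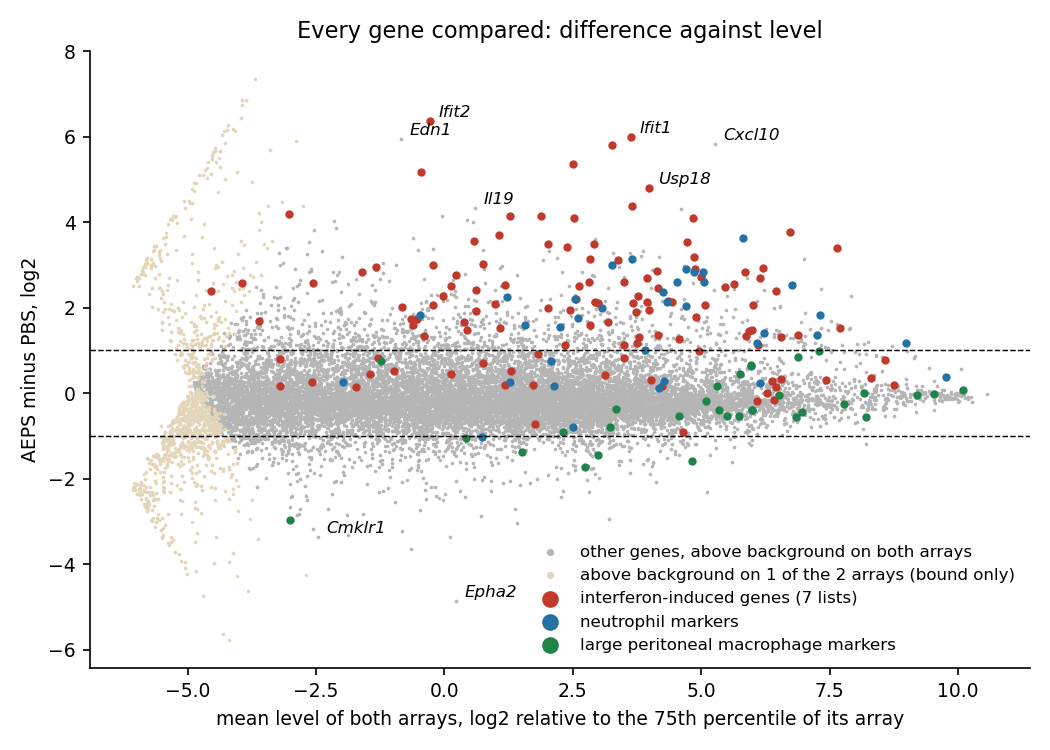
Each point is 1 of the 14935 genes compared; the horizontal axis is its mean log2 level on the PBS and AEPS arrays and the vertical axis the difference, AEPS minus PBS, with dashed lines at 2-fold. Interferon-induced genes (red) lie mostly above the upper line over the whole range of levels, neutrophil markers (blue) lie above it in 25 of 37 cases, and large peritoneal macrophage markers (green) lie around or below 0; pale points on the slanted edges are genes above background on only 1 of the arrays.

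The 7 lists of interferon-induced genes held 121 genes that could be compared. Of these, 91 were higher with AEPS, 62 by at least 4-fold, and none was lower; the median difference was 2.06, beside -0.17 for all genes. The remaining 30 were within 2-fold. On 64 of the 121, both arrays with AEPS in the injection stood at least 2-fold above each of the other 3 arrays, a pattern found for 166 of all the genes compared. Of the 91, 9 belonged to the slide column pattern.

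The Ifit genes, whose products bind viral RNA that lacks the cell's own cap marks, showed the largest differences. Ifit1 had a level of 0.65 with PBS and 6.63 with AEPS, a 63.0-fold difference, and stood at 3.25 with OVA, 6.11 with OVA and AEPS, and 2.26 with OVA and alum. Ifit3 went from 0.36 to 6.17 (56.1-fold) and Ifit2, of the slide column pattern, from -3.47 to 2.89 (82.2-fold). The near-identical copies Ifit3b, with 41.1-fold, and Ifit1bl1, with 35.8-fold and the slide column pattern, may share signal with their neighbours. On the OVA array these genes were intermediate, and both arrays with AEPS were the highest. All 6 Ifit genes were higher and their median difference was 5.58.

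Promoter windows of 300 bases, from 250 bases before to 50 after the annotated start, are shown for 6 genes with large increases. The 6 are a selection, not the largest increases in order. Cxcl10 is a chemokine gene outside the interferon-induced lists, and the others belong to them. The windows are shown because the interferon response element is the sequence through which the response is known to act. They come from RefSeq, build GRCm38.p6, and are printed 5′ to 3′ on the strand of the gene. Capitals mark every match, on either strand, to the core GAAANNGAA, so that a match on the opposite strand shows as its reverse complement.
Ifit1, chr19:34640639-34640938, plus strand: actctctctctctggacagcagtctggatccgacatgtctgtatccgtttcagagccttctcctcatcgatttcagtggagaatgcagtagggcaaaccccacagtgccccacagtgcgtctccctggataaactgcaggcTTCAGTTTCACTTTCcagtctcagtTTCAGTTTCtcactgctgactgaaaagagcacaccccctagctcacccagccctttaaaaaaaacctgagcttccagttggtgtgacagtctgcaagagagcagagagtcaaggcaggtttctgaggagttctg
Ifit3, chr19:34583279-34583578, plus strand: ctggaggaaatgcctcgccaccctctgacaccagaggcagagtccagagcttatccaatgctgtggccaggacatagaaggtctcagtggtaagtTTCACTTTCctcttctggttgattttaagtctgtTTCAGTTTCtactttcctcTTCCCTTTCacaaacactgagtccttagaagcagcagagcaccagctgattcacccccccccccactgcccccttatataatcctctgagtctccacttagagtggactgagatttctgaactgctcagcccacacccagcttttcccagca
Isg15, chr4:156200769-156201068, minus strand: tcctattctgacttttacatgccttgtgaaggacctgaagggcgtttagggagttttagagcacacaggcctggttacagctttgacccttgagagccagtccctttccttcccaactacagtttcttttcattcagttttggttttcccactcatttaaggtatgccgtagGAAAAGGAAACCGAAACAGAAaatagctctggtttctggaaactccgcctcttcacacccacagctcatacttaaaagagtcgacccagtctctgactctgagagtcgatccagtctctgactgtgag
Cxcl10, chr5:92348840-92349139, minus strand: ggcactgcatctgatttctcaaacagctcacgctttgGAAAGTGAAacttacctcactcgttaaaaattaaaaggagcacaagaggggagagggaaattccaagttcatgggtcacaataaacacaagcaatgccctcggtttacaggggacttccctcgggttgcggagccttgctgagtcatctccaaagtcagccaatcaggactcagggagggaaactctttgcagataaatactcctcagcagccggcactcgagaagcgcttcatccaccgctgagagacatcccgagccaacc
Rsad2, chr12:26456403-26456702, minus strand: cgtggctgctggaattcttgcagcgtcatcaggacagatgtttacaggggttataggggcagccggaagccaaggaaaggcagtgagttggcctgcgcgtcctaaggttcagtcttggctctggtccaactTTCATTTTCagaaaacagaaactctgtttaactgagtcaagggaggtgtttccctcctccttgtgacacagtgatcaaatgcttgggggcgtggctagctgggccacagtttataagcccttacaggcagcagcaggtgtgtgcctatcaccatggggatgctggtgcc
Ifit2, chr19:34550444-34550743, plus strand: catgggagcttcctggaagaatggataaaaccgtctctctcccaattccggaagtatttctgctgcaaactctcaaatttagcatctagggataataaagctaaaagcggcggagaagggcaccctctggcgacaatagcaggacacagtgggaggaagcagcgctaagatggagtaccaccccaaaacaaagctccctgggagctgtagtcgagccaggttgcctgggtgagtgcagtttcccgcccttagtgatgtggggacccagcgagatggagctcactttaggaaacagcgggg

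Ifit1, Ifit3 and Isg15 each held 3 matches and Cxcl10 and Rsad2 held 1 each, while the Ifit2 window held none. Among windows of interferon-induced genes not shown, those of Cmpk2, Herc6 and Ube2l6 held none. Those of Ifit3b, Ifit1bl1 and Ifit1bl2 held matches. Over the 11928 compared genes with a promoter window 7.67% held the core, as did 8.57% of all 27025 windows. The share was 13.2% among the higher genes, 19.7% among those at least 4-fold higher, 22.8% among those at least 8-fold higher and 5.10% among the lower genes. Of the 95 interferon-induced genes with a window, 50 held it (52.6%). Of the 132 higher genes of the slide column pattern with a window, 14.4% held it.

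3 further motifs of factors known to act in inflammation, and the general CCAAT box, were counted on both strands in the same windows. The letters TGANTCA, bound by AP-1, were in 5.71% of the windows of the 11928 compared genes, 9.43% of those of higher genes and 18.1% of those at least 8-fold higher. In the same 3 sets the NF-kB letters GGGNNTTTC were in 4.42%, 5.83% and 3.15%. TGACGTCA, bound by CREB and ATF factors, was in 2.91%, 2.82% and 1.57%, and CCAAT in 38.5%, 38.6% and 36.2%. Of all 27025 windows, 7.93% held the AP-1 letters, 4.46% those of NF-kB, 1.88% TGACGTCA and 37.9% CCAAT. Among the 95 windows of interferon-induced genes, 18.9% held the AP-1 letters, 8.42% those of NF-kB, 1.05% TGACGTCA and 38.9% CCAAT. A match is a description of the letters in the window, not of a bound site.

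**Figure D2:**
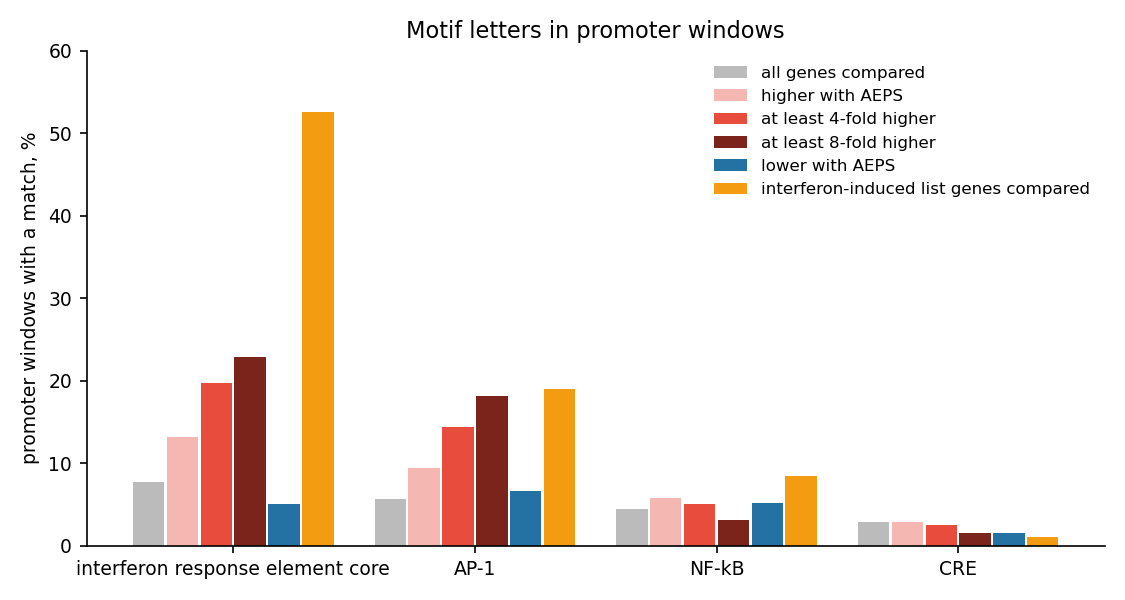
Bars give the share of 300-base promoter windows, in percent, that hold each motif on either strand, for all genes compared, for genes higher with AEPS by at least 2-, 4- and 8-fold, for genes lower with AEPS and for the interferon-induced genes. The core of the interferon response element was in 7.67% of the windows of the genes compared and in 52.6% of those of interferon-induced genes, while the NF-kB motif was in 4.42% and 8.42%.

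Type I interferon genes were dim, and most ligand and receptor genes stayed within 2-fold. Ifnb1, the interferon beta gene, was not well above background with PBS and stood at -3.73 with AEPS, at least 2.65-fold higher, and belonged to the slide column pattern. Ifna1 and Ifna2, 2 of the interferon alpha genes, stood at -2.46 and -2.91 with PBS and at -2.34 and -2.84 with AEPS, dim on both arrays. Ifng, the interferon gamma gene of NK and T cells, went from -0.21 to 2.19 (5.27-fold) and was 0.88 with OVA, 1.53 with OVA and AEPS, and 1.84 with OVA and alum. Its level with PBS was the lowest of the 5. Ifnlr1, a receptor chain for interferon lambda, was 4.88-fold higher, whereas Ifnar1, a chain of the type I receptor, differed by -0.32. Of 16 ligand and receptor genes, 3 were higher and 1, Ifna11, was lower (-2.98 to -4.14). Of all genes compared, 8.7% were higher and 6.89% lower.

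Signal transducers of the pathway were higher in 6 of 20 cases, with none lower. Irf7, the factor that amplifies interferon production, went from 1.58 to 3.54 (3.91-fold). Stat2 went from 3.48 to 5.36 (3.67-fold) and Irf9 from 4.68 to 6.04 (2.56-fold). Irf7 and Stat2 were at least 2-fold above the other 3 arrays on both arrays with AEPS. Jak2 was 4.46-fold higher with the slide column pattern and Stat4 2.34-fold higher. Irf3, which acts before interferon is made and is regulated mainly by phosphorylation, differed by -0.27, and Irf1 by 0.68.

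Enzymes and GTPases of the antiviral state were higher in most cases. Oasl1, an oligoadenylate synthetase-like protein, went from 4.85 to 8.62 (13.7-fold), Oas2 from 3.37 to 5.50 (4.38-fold) and Oas1a from 6.22 to 7.58 (2.56-fold), and 8 of 11 genes of that list were higher. Among the interferon-inducible GTPases, which attack the vacuoles of intracellular microbes, 17 of 18 were higher with a median of 2.56. Irgm1 stood at 2.95 with PBS, 6.50 with AEPS, 4.31 with OVA, 6.46 with OVA and AEPS, and 3.99 with OVA and alum, an 11.6-fold difference. Igtp was 6.44-fold higher, Ifi47 7.65-fold and Gbp2 3.42-fold; Tgtp2, with 17-fold, has the near-identical neighbour Tgtp1 and its value is uncertain for that reason.

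Sensors of nucleic acids were higher in 11 of 16 cases. Ifih1 (MDA5, a sensor of double-stranded RNA) went from 0.47 to 4.56 (17-fold), Ddx58 (RIG-I) from 4.05 to 6.10 (4.16-fold) and Dhx58 from 1.46 to 3.67 (4.62-fold). Ifi204, a nuclear DNA sensor, was 9.07-fold higher and Zbp1, a sensor of Z-form nucleic acids, 5.91-fold. Eif2ak2 (PKR, which stops translation when it meets double-stranded RNA) was 13-fold and Ifi211 8.80-fold higher, both with the slide column pattern, which held 4 of the 11.

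ISG15 is a ubiquitin-like modifier that interferon-treated cells attach to proteins. Isg15 itself went from 5.94 to 9.35 (10.6-fold), and its second probe differed by 3.75. Usp18, the protease that removes ISG15 and restrains the interferon receptor, went from 1.60 to 6.39 (27.7-fold), and Herc6, the mouse ligase for ISG15, from -1.21 to 2.36 (11.8-fold). The conjugating enzyme gene Ube2l6 was 2.19-fold higher and the activating enzyme gene Uba7 differed by 0.17. Thus 4 of 5 genes of the ISG15 cycle were higher.

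Among 39 other antiviral genes, 23 were higher. Rsad2 (viperin, which makes a chain-terminating nucleotide) went from 1.47 to 5.85 (20.9-fold), beside 3.17 with OVA, 5.54 with OVA and AEPS, and 3.08 with OVA and alum. Its chromosomal neighbour Cmpk2 was 17.7-fold higher, Isg20, an exonuclease, 7.08-fold and Bst2 (tetherin, which holds budding virus at the cell surface) 2.55-fold. Ifitm1 was 2.48-fold higher than PBS, at 4.44, but below the arrays with OVA alone (4.79) and with OVA and alum (5.47). Of 26 Schlafen, Parp and Trim genes 22 were higher, among them Slfn4 (11.1-fold), Slfn8 (11.2-fold), Slfn5 (7.66-fold) and Parp14 (7.52-fold).

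These genes were also examined where no PBS array enters, by setting OVA with AEPS against OVA alone. There 608 genes were higher (4.08% of those compared) and 542 lower (3.64%). In the interferon lists 5 of 6 Ifit genes, 13 of 18 GTPases, 9 of 16 sensors, 22 of 39 other antiviral genes and 17 of 26 Schlafen, Parp and Trim genes were higher, with none lower. Of the 91 interferon-induced genes higher with AEPS than with PBS, 71 were also higher there, and of all 1299 higher genes 263 were. Between the AEPS and the OVA array directly, 631 genes were higher (4.25%) and 481 lower (3.24%), and 75 of the 91 were among those higher. OVA with AEPS against OVA gave a median of 3.32 for the Ifit family and 1.13 for the GTPases, below the 5.58 and 2.56 found against PBS.

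**Figure D3:**
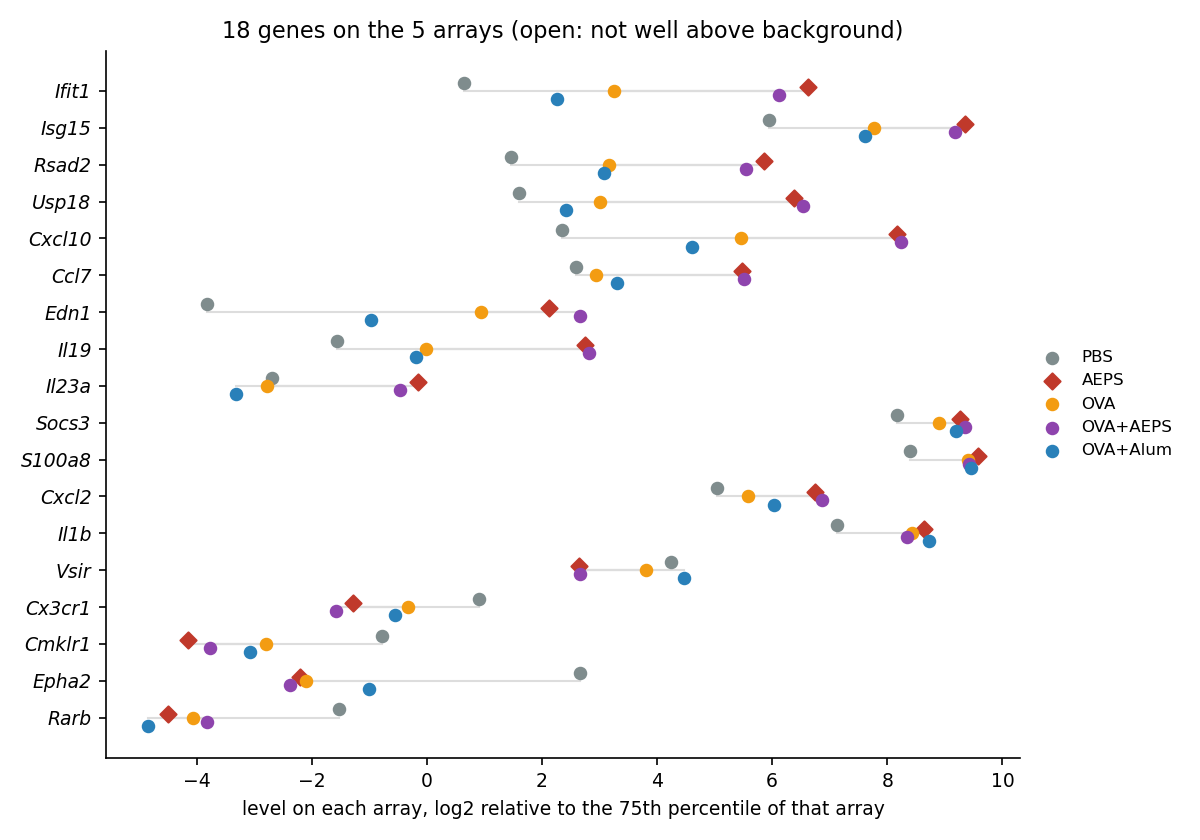
Each row is 1 of 18 genes and each symbol its log2 level on 1 of the 5 arrays, relative to the 75th percentile of that array; the red diamond is AEPS and every value shown was well above background. For Ifit1, Isg15, Rsad2, Usp18, Cxcl10, Ccl7, Il19 and Il23a both arrays with AEPS stand apart on the right, for S100a8 and Il1b the PBS array stands apart on the left, and for Vsir both arrays with AEPS stand apart on the left.

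Chemokines differed by class. Cxcl10, a ligand of CXCR3 that draws T and NK cells and an interferon target itself, went from 2.35 to 8.17 (56.4-fold) and was 5.45 with OVA, 8.24 with OVA and AEPS, and 4.60 with OVA and alum. Cxcl9, a second ligand of that receptor, went from -1.12 to 1.04 (4.46-fold). Cxcr3, the receptor, was lower with AEPS, at 2.28 beside 3.47 with PBS, and also at 1.84 with OVA and AEPS beside 3.27 with OVA. Thus ligand and receptor differed in opposite directions. Ccl19, a CCR7 ligand, was 3.50-fold higher by its brightest probe and 0.38 by another, and Ccr7 differed by 0.40.

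Chemokines of monocytes were highest on both arrays with AEPS. Ccl7 went from 2.60 to 5.47 (7.32-fold) and was 2.95 with OVA, 5.51 with OVA and AEPS, and 3.30 with OVA and alum. Ccl2 went from 4.50 to 6.29 (3.44-fold), Ccl3 from 5.53 to 7.54 (4.05-fold) and Ccl4 from 5.45 to 8.57 (8.73-fold), and these 4 were each at least 2-fold above the 3 arrays without AEPS. Ccl5, made by T cells and macrophages, was 2.28-fold higher. Ccr2, the receptor for CCL2 and CCL7 on inflammatory monocytes, differed by 0.05. Cx3cr1, a receptor of resident and patrolling phagocytes, was lower, from 0.91 to -1.29 (4.59-fold), and its second probe differed by -2.19. In all, 5 of 16 genes of this list were higher and 1 was lower.

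Chemokines that draw neutrophils were higher too, but less distinct from the other injections. Cxcl1 went from 6.69 to 8.38 (3.23-fold), Cxcl2 from 5.04 to 6.75 (3.26-fold), Cxcl3 from 3.35 to 5.45 (4.28-fold) and Cxcl5 from -2.46 to 0.55 (8.03-fold). None of the 8 genes of the list stood at least 2-fold above all 3 arrays without AEPS on both arrays with AEPS. Cxcr2, the neutrophil receptor for these ligands, went from 2.07 to 4.05 and stood higher still with OVA (4.42) and with OVA and alum (5.63). Its level differed in the same direction as the neutrophil markers described below.

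Of 14 genes of the interleukin 1 family, 10 were higher with AEPS, with none lower and a median of 1.83. Il1b went from 7.13 to 8.63 (2.83-fold), but stood at 8.43 with OVA, 8.35 with OVA and AEPS, and 8.73 with OVA and alum. So the PBS array was the low one. The antagonist gene Il1rn was 6.74-fold higher, the decoy receptor gene Il1r2, also a neutrophil marker, 4.38-fold, Il1f9 (interleukin 36 gamma) 8.91-fold and Il1a, of the slide column pattern, 6.79-fold. Il33, an alarmin of barrier and stromal cells, was at least 36.7-fold higher, since it was not well above background with PBS and stood at 0.06 with AEPS. Set against OVA alone, OVA with AEPS had 2 of 14 genes of the list higher. The mean level of the neutrophil markers was 3.39 with PBS and between 4.57 and 5.07 on the other arrays, and its part in these differences was not tested.

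Several cytokines separated the arrays with AEPS from the rest. Il6 went from 4.15 to 5.63 (2.78-fold) and was 4.06 with OVA, 5.44 with OVA and AEPS, and 2.08 with OVA and alum. Il23a, the private chain of interleukin 23, went from -2.68 to -0.15 (5.78-fold) and Il27 from -0.12 to 1.26 (2.60-fold), both likewise high on the 2 arrays with AEPS only. Il12a differed by 0.18. Csf3 (G-CSF, the growth factor of neutrophils) went from 1.38 to 3.83 (5.47-fold), beside 0.75 with OVA and 3.89 with OVA and AEPS, whereas Csf2 (GM-CSF) differed by -0.45 and Csf1 by 0.29.

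Il19, a member of the interleukin 10 family made by activated myeloid cells, was among the 12 largest increases of genes above background on both arrays. It went from -1.57 to 2.75 (20-fold), was -0.01 with OVA, 2.82 with OVA and AEPS, and -0.19 with OVA and alum, and its second probe differed by 4.26. Il10, the anti-inflammatory cytokine, went from -0.44 to 1.42 (3.63-fold) and was -0.93 with OVA and 1.04 with OVA and AEPS. Its relatives Il22 and Il24 differed by -0.01 and -0.02, and Il20 was not well above background on any array. Of the 7 family and receptor genes compared, only Il19 stood at least 2-fold above each of the 3 arrays without AEPS on both arrays with AEPS. Il10 did not.

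Interleukin 15, presented by its receptor chain to NK and CD8 T cells, was higher with both its genes: Il15 went from -2.42 to 1.21 (12.4-fold) and Il15ra from 3.79 to 5.52 (3.30-fold). Il2ra was 3.23-fold higher and Il2 differed by 0.13. In the TNF superfamily 7 of 23 genes were higher. Tnf itself went from 4.22 to 5.0 (1.72-fold, under the 2-fold bound), Tnfsf9 (4-1BB ligand) from 1.54 to 4.28 (6.69-fold) and Tnfsf10 (TRAIL) from -0.99 to 1.40 (5.23-fold). Tnfsf15 was at least 14.8-fold higher and Fas 3.95-fold. Of the T helper cytokines, Il4 differed by 0.53 and Il13 by 0.02, Il9 was not well above background on either array, and Il17a was at least 4.36-fold higher at a dim level of -2.91.

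Genes of the NF-kB module were higher in 9 of 25 cases, with none lower and a median of 0.86; with spike-in scaling 20 were higher. Inhibitors and feedback regulators were among them: Tnfaip3 (A20) went from 5.01 to 7.43 (5.33-fold), Tnip3 from -0.36 to 2.61 (7.87-fold, slide column pattern), Zc3h12a (regnase 1, which degrades cytokine mRNA) from 1.67 to 3.67 (3.99-fold) and Nfkbiz from -0.09 to 1.72 (3.51-fold). The subunit genes Nfkb1 and Nfkb2 were 1.68- and 1.81-fold higher, under the bound, and Rel was 2.63-fold higher. Set against OVA alone, 2 of 25 genes of the module were higher with AEPS and 2 of 25 with OVA and AEPS, with none lower. The median difference of the module from PBS was 0.54 with OVA alone and 0.40 with OVA and alum. Other brakes on signalling were higher as well. Socs1, which blocks JAK kinases, went from 3.57 to 5.77 (4.60-fold) and was at least 2-fold above all 3 arrays without AEPS; Socs3 was 2.13-fold higher and Dusp1, a phosphatase of p38 and JNK, 2.62-fold.

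Some early genes and growth factor feedback genes were lower with AEPS. Dusp6, the phosphatase induced by ERK, went from 5.17 to 3.08 (4.24-fold lower) and was 4.46 with OVA, 3.22 with OVA and AEPS, and 4.17 with OVA and alum. Egr1 went from 4.89 to 3.52 (2.58-fold lower), Klf10 from 3.15 to 1.40 (3.38-fold), Klf4 from 2.18 to 0.08 (4.29-fold) and Fos from 3.62 to 2.47 (2.23-fold). Egr1 was also at least 2-fold lower on both arrays with AEPS than on each other array. Batf2, an interferon-responsive AP-1 factor, was 4.59-fold higher and Myc 2.40-fold, so that the list of 27 held 5 higher and 6 lower genes.

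Receptors that could meet a polysaccharide were read next. Of 29 Toll-like receptor, co-receptor and adaptor genes 4 were higher and 2 lower, with a median of 0.18. Tlr2 went from 5.85 to 6.37, Tlr4 from 1.09 to 2.29 (2.29-fold), Tlr7 from 0.98 to 3.0 (4.03-fold) and Tlr3 from -4.65 to -3.20 (2.72-fold), while Tlr11 was lower, from -2.85 to -4.60 (3.38-fold). Cd14, the co-receptor of TLR4, was bright on all arrays and differed by 0.82. Of 28 C-type lectin and other sugar receptor genes 5 were higher and none lower: Clec5a, a myeloid receptor, was at least 3.34-fold higher with the slide column pattern, Clec2d was 2.74-fold higher, Clec4e (Mincle) was 2.56-fold higher with the slide column pattern and Clec4d 2.21-fold, and Clec4n (Dectin-2) differed by 0.69. Scavenger receptors gave 2 increases and 1 decrease of at least 2-fold among 13 compared. The increases were Olr1, by 1.64, and Cd36, by 1.21, on the measured signals. The slide column pattern held 1 of that pair. The decrease was Marco, a scavenger receptor of peritoneal macrophages, 2.06-fold lower, at 3.35 beside 4.39 with PBS.

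Inflammasome genes differed in both directions. Casp4 (caspase 11, which senses cytosolic lipopolysaccharide) was 7.88-fold higher and Casp1 2.35-fold, both of the slide column pattern, and Mefv (pyrin) went from 3.49 to 5.29 (3.48-fold). Pycard, the adaptor ASC, was lower, from 5.94 to 4.64 (2.45-fold). Nlrp3 differed by 0.65.

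**Figure D4:**
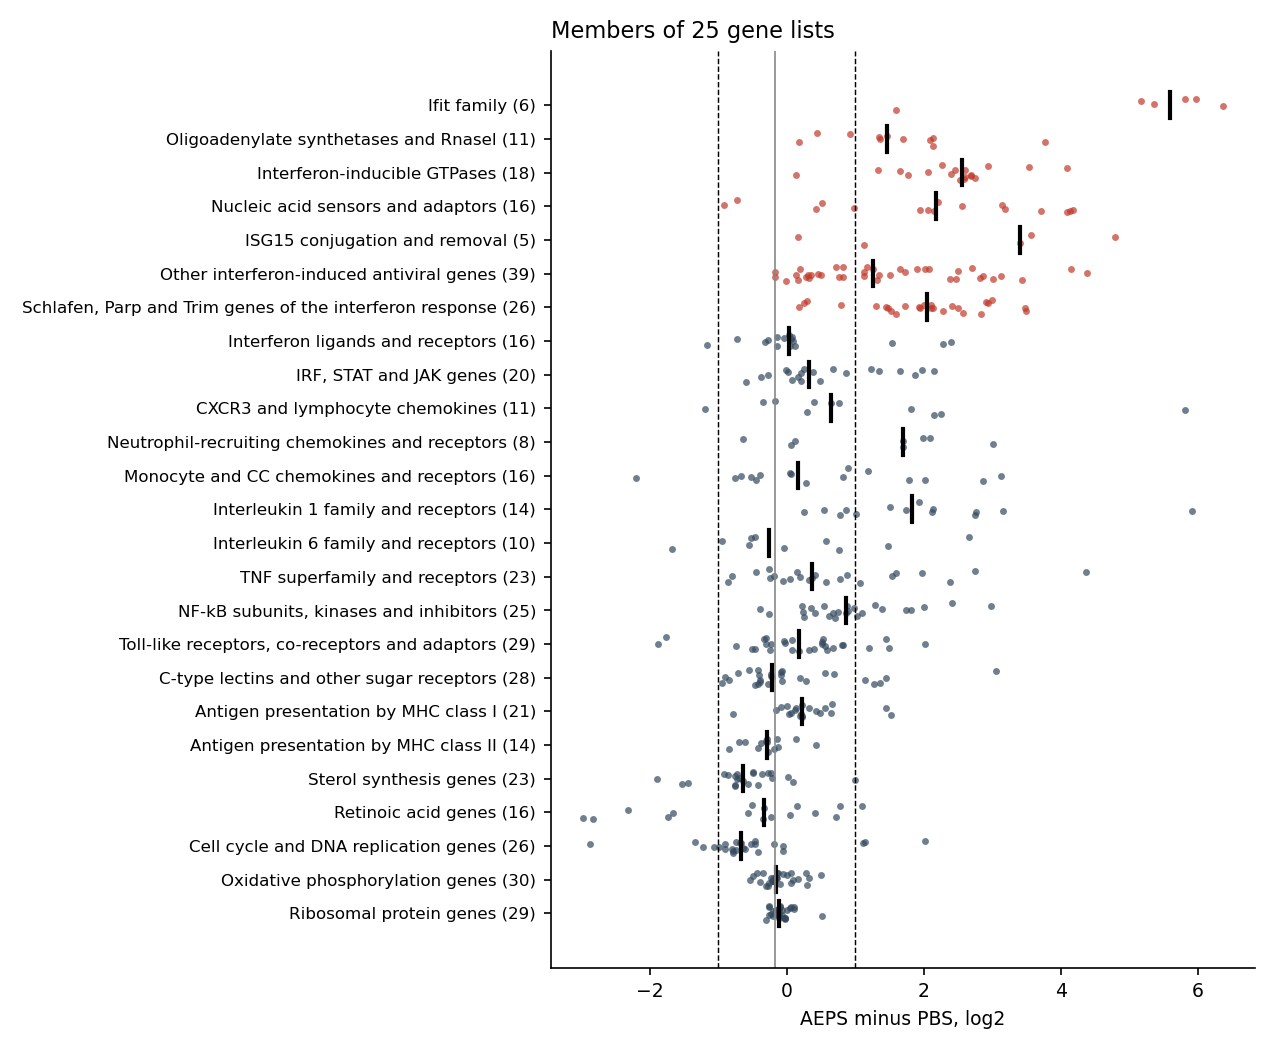
Each dot is 1 gene of the list named at the left (number of genes compared in parentheses), placed by its difference in log2 level, AEPS minus PBS; the black bar is the median of the list, the grey line the median of all genes at -0.17 and the dashed lines 2-fold. The 7 interferon-induced lists (red) lie to the right with medians from 1.26 to 5.58, while the medians of oxidative phosphorylation and ribosomal protein genes lie at -0.15 and -0.10.

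Marker lists of the cells a lavage can hold were read on all 5 arrays. Of 37 neutrophil markers 25 were higher with AEPS and 1 was lower, with a median of 1.60. S100a8, a calgranulin, went from 8.40 to 9.58 (2.27-fold), Lcn2 (lipocalin 2) from 4.01 to 7.63 (12.3-fold), Mmp8 (neutrophil collagenase) from 1.75 to 4.76 (8.02-fold) and Chil1 from 2.08 to 5.22 (8.84-fold). The mean level of the list was 3.39 with PBS, 4.86 with AEPS, 4.60 with OVA, 4.57 with OVA and AEPS, and 5.07 with OVA and alum. So the PBS array was the low one, the other injections lay close together, and OVA with AEPS against OVA had 1 of 37 higher and 4 lower. Fewer cells of a type and less RNA per cell cannot be told apart in these samples.

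Resident macrophage markers leaned the other way. None of 30 large peritoneal macrophage markers was higher and 6 were lower, with a median of -0.39; with spike-in scaling 2 were lower. Gata6, the factor that defines these cells, went from 2.20 to 0.81 (2.62-fold lower) and was 1.96 with OVA, 0.83 with OVA and AEPS, and 0.82 with OVA and alum. The surface markers Adgre1 and Icam2 stayed within 2-fold, at 7.18 and 8.49 with PBS and 6.75 and 7.93 with AEPS. Hal was 3.01-fold lower and Arg1 2.73-fold. The other lower members were Naip1, Rarb and Rarg. The mean level of the list was 5.34 with PBS, 4.91 with AEPS, 5.01 with OVA, 5.07 with OVA and AEPS, and 4.28 with OVA and alum.

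Of 23 B cell markers 2 were lower, beside 6.89% of all genes compared. These were Cd79b, by 2.28-fold (8.81 to 7.62), and Bhlhe41, by 2.69-fold. T cell receptor genes were level, with Cd3e at 4.46 and 4.17, but the cytotoxic gene Gzmb (granzyme B) went from 2.23 to 5.43 (9.23-fold), and it was 3.03 with OVA, 4.39 with OVA and AEPS, and 3.82 with OVA and alum. Gzma was 2.14-fold higher and Klrk1 (NKG2D) 3.05-fold. Among inflammatory monocyte markers 3 of 18 were higher, Ly6c1 by 2.32-fold by its brightest probe (0.28 by another) and Ms4a6b and Vcan with the slide column pattern.

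Mast cell markers were higher in 10 of 21 cases, 4 of them of the slide column pattern (Cpa3, Fcer1a, Mrgprx2 and Mrgprb2). The mean level of the list was 0.44 with PBS, 1.33 with AEPS, 1.26 with OVA, 1.25 with OVA and AEPS, and 0.79 with OVA and alum. So the PBS array was the lowest here too, and the array with OVA and alum, also in slide column 4, was the next lowest. The part of the slide column in this was not tested. Set against OVA alone, none of 21 was higher or lower with AEPS, nor with OVA and AEPS. The chymase genes Mcpt4 and Cma1 of connective tissue mast cells did not differ by 2-fold: Mcpt4 stood at 7.14 and 7.38 and Cma1 at 5.20 and 5.45. Hdc, the enzyme that makes histamine, which neutrophils also express, was 3.55-fold higher. Of 13 eosinophil and basophil markers 5 were higher and none lower. Among them Cd200r3, a receptor of basophils and mast cells, was 2.74-fold higher, Ear6, an eosinophil ribonuclease, 2.20-fold, Il5ra, the receptor for interleukin 5, 2.20-fold, Mcpt8, a basophil protease, 2.05-fold and Ms4a3 at least 2.73-fold. The defining eosinophil gene Epx (eosinophil peroxidase) was not well above background on any array. Siglecf, a second defining eosinophil gene, differed by 0.25, and the list members Ccr3, Prg2 and Alox15 by -0.44, -0.15 and -0.18. Set against OVA alone, none of 13 genes of the list was higher with AEPS and 2 were lower. With OVA and AEPS against OVA, none of 13 was higher and 1 was lower. Of 23 mesothelial, stromal and endothelial markers 5 were higher, such as Dcn (3.35-fold), Pdpn (3.27-fold) and Lum (2.86-fold), and 1 was lower, the endothelial cadherin gene Cdh5, by -2.16 on the measured signals and at least 1.66-fold. The list had a mean level of -0.98 with PBS, -0.45 with AEPS and 0.28 with OVA and alum. Red cell genes were high on both compared arrays, with Hba-a1 at 9.78 and 10.36, and lower with OVA alone (8.48). The part of cell numbers in the gene differences was not tested.

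**Figure D5:**
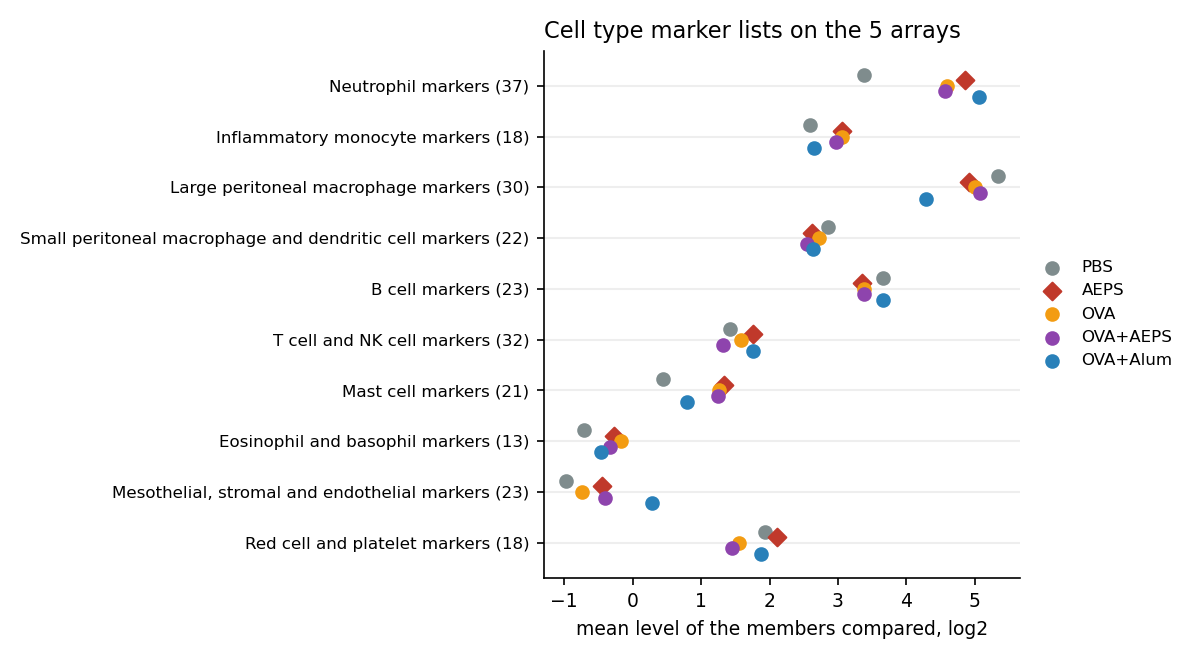
For each of 10 marker lists (number of genes compared in parentheses) the symbols give the mean log2 level of its members on each of the 5 arrays, relative to the 75th percentile of the array; the red diamond is AEPS. The neutrophil list has the PBS array at 3.39 and the other arrays between 4.57 and 5.07, and the large peritoneal macrophage list has PBS highest at 5.34 and OVA with alum lowest at 4.28.

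Effector enzymes of activated macrophages were higher in 8 of 19 cases and lower in 1. Set against OVA alone, none of 19 was higher or lower with AEPS, and with OVA and AEPS 3 were higher and 1 lower. Nos2, the inducible nitric oxide synthase, went from 1.82 to 3.94 (4.34-fold) and was 4.35 with OVA and AEPS. Acod1, which makes itaconate, went from 6.78 to 9.06 (4.85-fold) and Il4i1 was 3.19-fold higher. Ido1 and Ido2, which break down tryptophan, were higher by at least 4.4-fold (slide column pattern) and by 9.53-fold. Arg2 was 2.56-fold higher where Arg1 was lower. In prostaglandin synthesis Ptgs2 (COX-2) went from 1.95 to 3.62 (3.19-fold), and Ptgs1 (COX-1) went the other way, from 5.06 to 3.76 (2.46-fold lower).

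Antigen presentation genes were little altered. Of 14 MHC class II genes none differed by 2-fold, with H2-Ab1 at 9.34 and 9.20. Of 21 class I genes 2 were higher, beside 8.7% of all genes compared. These were the peptide transporter gene Tap1 (0.79 to 2.30, 2.86-fold) and Nlrc5, the transactivator of class I genes (2.72-fold by its brightest probe). Among co-stimulatory molecules Cd69, an early activation marker, went from -0.92 to 2.42 (10.1-fold) and Cd274 (PD-L1) from 3.63 to 5.58 (3.88-fold), both at least 2-fold above the 3 arrays without AEPS. Cd80, Cd86 and Cd40 differed by -0.47, 0.81 and 0.42, and a second Cd80 probe by 1.05. Vsir (VISTA, an inhibitory ligand of myeloid cells) was lower, from 4.24 to 2.65 (3.02-fold), and was 3.80 with OVA, 2.66 with OVA and AEPS, and 4.47 with OVA and alum.

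Edn1, which encodes the vasoconstrictor peptide endothelin 1, had the third largest increase among genes above background on both arrays. It went from -3.81 to 2.13 (61.4-fold), with 0.94 for OVA, 2.66 for OVA and AEPS, and -0.97 for OVA and alum, and it belonged to the slide column pattern. Edn2 and Edn3 were not well above background on any array. Adm (adrenomedullin) was 4.29-fold higher with the same pattern. Rnd1, a small GTPase gene, went from 2.46 to 6.76 (19.8-fold), with a second probe at 4.35. Slc10a6, a carrier of sulphated steroids, went from -2.19 to 1.17 (10.2-fold) and was again -2.19 with OVA and 1.49 with OVA and AEPS.

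Proteases and their regulators were higher in part. Timp1, an inhibitor of matrix metalloproteinases, went from 1.98 to 5.26 (9.73-fold), Adamts4 from -3.58 to -0.40 (9.12-fold), and Mmp13 was at least 10.3-fold higher with the slide column pattern. Mmp3 was at least 11.2-fold higher and above background with AEPS alone of the 5 injections. Plau (urokinase, a plasminogen activator) was 2.14-fold lower. Inhba and Inhbb, the activin subunits, were 8.18- and 5.04-fold higher.

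Of 22 metallothionein, iron and haem genes 4 were higher and 2 lower. Slc40a1 (ferroportin, the iron exporter of macrophages) stood at 0.51 with PBS, -0.88 with AEPS, 2.39 with OVA, -1.57 with OVA and AEPS, and 3.0 with OVA and alum. It was 2.61-fold lower with AEPS than with PBS and differed by -3.96 between OVA with AEPS and OVA. Hamp, the gene of hepcidin, which removes ferroportin from the cell surface, was at least 3.91-fold higher. Tfrc, the transferrin receptor, went from -1.74 to -0.22 (2.86-fold) with both further probes in the same direction. Mt1 and Mt2 differed by 0.27 and 0.86.

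Among the lower genes, a first group was lower on both arrays with AEPS. 82 of the genes compared stood at least 2-fold below each of the other 3 arrays on both. B3gnt8, a glycosyltransferase gene, went from -0.21 to -3.53 (10-fold lower) and was -1.32 with OVA, -3.79 with OVA and AEPS, and -1.23 with OVA and alum. Arl11, which supports macrophage activation, was 5.34-fold lower, and Fut7, which makes selectin ligands, 4.93-fold with a second probe at -2.84. Notch4 was 5.30-fold lower and Flt3, the receptor of dendritic cell precursors, 2.97-fold. Tfeb, the regulator of lysosomal genes, was 2.63-fold lower, while Ctsb and Ctsc differed by -0.32 and -0.06. Of the 1029 lower genes 156 were also lower in OVA with AEPS against OVA.

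A second group was high with PBS only. Epha2, an ephrin receptor, had the largest decrease among genes above background on both arrays, from 2.66 to -2.20 (29.1-fold lower), and was also -2.11 with OVA, -2.38 with OVA and AEPS, and -1.01 with OVA and alum. Slc9a3r2 was 10.4-fold lower by its brightest probe and by -1.02 on the log2 scale by another, and Cmklr1, the receptor for chemerin, was 10.3-fold lower, from -0.77 to -4.14. C3ar1, the receptor for the complement peptide C3a, went from 2.06 to -0.23 (4.88-fold lower), with 0.54 for OVA and -0.39 for OVA and alum. Ccnd1 (cyclin D1) was 7.31-fold lower, with levels between -0.97 and -0.17 on the 3 remaining arrays.

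Retinoic acid genes, which support the resident macrophage programme, were lower in 5 of 16 cases, with 1 higher. The receptor genes Rarb, Rarg and Rxra went from -1.53 to -4.50 (7.87-fold lower), from 3.61 to 1.88 (3.32-fold) and from -1.81 to -3.47 (3.15-fold). Dhrs3, a retinaldehyde reductase and target of the pathway, went from 6.26 to 3.95 (4.97-fold lower) and was 4.71 with OVA and 4.01 with OVA and alum. Cyp26a1, which degrades retinoic acid, was 7.06-fold lower. For Rarb and Dhrs3 the PBS array was above all the others.

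Of 23 sterol synthesis genes 3 were lower, among them Mvd (2.89-fold) and Dhcr7 (2.72-fold), and 1, Idi1, was higher by 2.01-fold, with a median of -0.64 beside -0.17 for all genes. Of 19 oxysterol, LXR and lipid efflux genes 2 were higher and 2 lower. Nr1h3 (LXR alpha) went from 1.57 to -0.43 (4.0-fold lower), with a second probe at -2.22. Ch25h, which makes 25-hydroxycholesterol and is induced by interferon, was 6.90-fold higher with the slide column pattern. Among 26 cell cycle genes 4 were lower and 3 higher, with a median of -0.67. Mki67, at 4.05-fold higher, was of the slide column pattern, and Top2a differed by -0.05.

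None of 30 oxidative phosphorylation genes, 29 ribosomal protein genes or 27 proteasome genes was higher or lower, with medians of -0.15, -0.10 and -0.05. In glycolysis and the hypoxia response Pfkfb3 went from 4.35 to 6.63 (4.86-fold) and Hk2 was 2.10-fold higher, and Hif1a went from 1.23 to 2.81 (2.99-fold), while 22 of the 28 genes were within 2-fold. Of 15 housekeeping genes, Actb differed by -0.04 and Gapdh by -0.19, and Tubb5 was 2.15-fold lower. Hsp90aa1, a heat shock protein gene, was 3.92-fold higher with the slide column pattern, whereas Hspa1a was 3.49-fold lower. In the oxidative stress list Slc7a11, the cystine carrier, went from -2.61 to 0.20 (7.04-fold), Osgin1 was 2.69-fold lower and Hmox1 differed by 0.19.

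Several differences lay in runs of neighbouring genes. On chromosome 16 a run of 10 neighbours that held 9 stefin and cystatin genes (Stfa1, Stfa2, Stfa2l1, Stfa3, Csta2, Csta3, Cstdc4, Cstdc5 and Cstdc6) was higher, by differences of 1.76 to 5.69; the top value was that of Casr, the last of the 10, which was not well above background with PBS and at least 24-fold higher. On chromosome 7 the 7 genes from Trim34a to Trim30e-ps1 were higher by 2.10 to 4.34, and on chromosome 11 the 7 Schlafen genes by 1.31 to 3.49 and 8 genes around Irgm1 and Tgtp1 by 1.07 to 4.08. The 6 Ifit genes on chromosome 19 and 4 Phf11 genes on chromosome 14, the latter by 2.47 to 2.84, formed further runs. 1 run was lower: 8 kallikrein genes on chromosome 7, from Klk1b26 to Klk1, by 1.12 to 1.57, and Klk1 stood at -0.08 with PBS, -1.65 with AEPS, -0.07 with OVA and -1.79 with OVA and AEPS. Some genes of these families are near-identical in sequence, so the probes of such genes may share signal and the number of independent differences is uncertain.

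Probes without a gene symbol gave shares near those of named genes. Of 7633 probes for long intergenic regions that could be compared, 645 were higher (8.45%) and 548 lower (7.18%), and of 7247 other unnamed probes 564 were higher (7.78%) and 456 lower (6.29%).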

How the data were processed

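Linear intensity values in the deposited scanner files were made by the authors with Agilent Feature Extraction 10.7.1.1, per the file headers, with background subtraction and detrending inside each array. A deposited log2 table of the series has the same median (4.67) in every column, so the authors had scaled it between arrays; its direction matches the scanner values (lowest r 0.9998). The files' other values of 0 or 1 are spot flags, per the file headers. Here control and outlier spots were left out (no spot was saturated), the log2 processed signal was set against the 75th percentile of its array, and spots of a probe were averaged. Of 55681 probes, 26582 matched 1 gene symbol by RefSeq transcript accession (GRCm38.p6); the brightest probe stood for a gene. Between 56.7% and 60.0% of probes were well above background. With 1 array per group, no test was run, and the number of arrays limits the precision.

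Members, 68 gene lists, motifs and the alternatives were chosen with earlier results of these data known. The text names the 12 largest differences each way among genes above background on both arrays, the 10 each way borne out by every probe, the 10 each way largest in both AEPS comparisons, and from each list the first 3 and the 8 most different genes; Klk1 and the neighbour runs were chosen after their values were seen. Analyses used Python 3.11.15, pandas 2.3.3 and limma 3.58.1. Some genes are not reported here.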

Additional observations from a re-analysis of the deposited data

Results flagged for a closer look

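On the measured signals 3 named genes differed by at least 2-fold in opposite directions with and without OVA, among 61 such genes in all, and for 2 of the 3 some values are bounds. Lif was lower with AEPS than with PBS, by -1.67 on the measured signals and at least 2.07-fold, but higher in OVA with AEPS than with OVA, by 3.55 on the measured signals and at least 7.89-fold; it was above background on the PBS array and on the OVA with AEPS array alone. Ifna11 differed by -1.16 and 1.34, and Cfd by -1.12 and 1.18. Both were dim, and Cfd was not well above background with AEPS or with OVA, so that it was at least 1.36-fold lower with AEPS than with PBS, a bound under 2-fold. With 1 array per group the difference between the contrasts was not tested.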

How the results depend on the processing

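No paired analysis was possible because each group is 1 array. Every difference is open to array and animal variation, and dim genes are the least certain. The 1299 higher genes became 776 after normexp with quantile scaling and 3284 with scaling on the spike-in probes, and lay between 1036 and 1524 under the other 6 alternatives. The 1029 lower genes became 354, 303 and, with background passed on both arrays, 674; they lay between 893 and 1424 otherwise. The share of differing genes that were higher, 55.8%, was 68.7% after normexp with quantile scaling, 61.4% with median scaling, 91.5% with spike-in scaling, 58.5% in the deposited table, 51.7% without the filter on dim probes, 60.6% with background passed on both arrays and 52.6% without the slide column genes. Spike-in scaling moved the median of all genes from -0.17 to 0.49. Interferon-induced genes higher numbered 82 to 104 under all 8 alternatives (91 as reported), and neutrophil markers 23 to 28 (25 as reported). With spike-in scaling 20 NF-kB genes were higher in place of 9, and 2 large peritoneal macrophage markers were lower in place of 6. The causes were not tested. Among the named genes that differed by at least 2-fold, P2rx7 changed sign, to 0.30, with the median over its probes. No other gene of that set did so under any alternative. Changes of sign among smaller differences were not counted.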
